A study of Mus musculus with 12 samples.

Results

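A set of 8 genes of peripheral myelin and of the Schwann cells that make it were followed in the cochlear sensory epithelium of mice at postnatal day 6 (P6). They were picked by symbol from the 28686 genes counted, with earlier results of these data known. All 8 were present in the count data: *Mbp*, *Pmp22*, *Mag*, *Mal*, *Prx*, *Cnp*, *Egr2* and *Sox10*. The mutants were 6 Sox2CreER/+Jag1fl/fl mice, in which tamoxifen activates a Cre recombinase made from the *Sox2* locus and deletes *Jag1*, a Notch ligand. The 6 controls were Sox2+/+ littermates, and every pup of both genotypes received tamoxifen at P0 and P1. In the crosses described for the study every pup inherits at least 1 floxed *Jag1* allele, so the controls, called wild type in the labels, lacked CreER but not necessarily the floxed allele. The labels give the strain as C57BL/6;129SV, whereas the study's methods give C57bl6/J for the CreER line and FVB/n for the floxed line, so the background is not certain. The genotypes therefore also differed at *Sox2*, which is active in supporting cells and in immature Schwann cells. *Jag1* itself had a mean of 102 ± 14.7 CPM (counts scaled to the size of the library) in controls against 36.4 ± 6.56 CPM in the mutants (SD, n = 6 each). The log2 fold change was -1.48, with a standard error (SE) of 0.13 and an edgeR adjusted p of 0.000258.

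Schwann cells are the glia of peripheral nerves and wrap axons in myelin, a stack of membrane that speeds the conduction of impulses. In the cochlea they ensheathe the fibres and cell bodies of the spiral ganglion neurons, and myelin is laid down there in the first weeks after birth. SOX10 is present throughout the Schwann cell lineage, together with POU3F1 it induces *Egr2*, and EGR2 then acts with SOX10 to switch on the genes of the myelin proteins and lipids.

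Since SOX10 and EGR2 act on these genes, the sequences before 3 of them are shown here: *Mag* and *Prx*, with the highest fold changes of the 8, and *Cnp*, the other gene with a match to a SOX core motif. The sequences are from RefSeq promoters on build GRCm38.p6, 5′ to 3′ on the strand of the gene, and capitals mark the motif ACAAAG or its reverse complement CTTTGT. The *Mag* sequence, chr7:30914923-30915172 on the minus strand, lies directly before an annotated start. Its CTTTGT is 67 bases before that start and 126 bases before another annotated start of *Mag*. The *Prx* sequence, chr7:27499074-27499323 on the plus strand, has no match. The *Cnp* sequence, chr11:100574689-100574903 on the plus strand, is printed without its last 35 bases, which lie past the start of the gene in the annotation used for coordinates, and has ACAAAG 132 bases before that start and 167 bases before the RefSeq start.
Mag: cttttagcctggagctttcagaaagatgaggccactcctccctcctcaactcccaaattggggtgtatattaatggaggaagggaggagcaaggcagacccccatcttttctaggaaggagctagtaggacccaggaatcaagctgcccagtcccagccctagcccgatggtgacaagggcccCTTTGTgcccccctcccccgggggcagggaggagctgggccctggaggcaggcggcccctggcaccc
Prx: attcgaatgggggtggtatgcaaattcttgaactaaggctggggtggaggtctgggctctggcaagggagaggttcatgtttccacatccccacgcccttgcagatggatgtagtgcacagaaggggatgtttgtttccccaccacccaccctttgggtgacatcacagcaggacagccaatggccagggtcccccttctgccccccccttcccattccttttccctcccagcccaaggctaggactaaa
Cnp: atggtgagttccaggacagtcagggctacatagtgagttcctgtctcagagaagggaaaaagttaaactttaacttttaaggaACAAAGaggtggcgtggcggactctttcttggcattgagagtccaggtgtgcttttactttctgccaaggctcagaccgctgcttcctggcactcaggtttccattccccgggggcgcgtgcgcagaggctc
Of the 8 genes, 6 have a RefSeq promoter sequence here (*Mal*, *Prx*, *Mag*, *Egr2*, *Pmp22* and *Cnp*), with 15 annotated starts. Within the 250 bases before a start, ACAAAG on either strand was found at 3 of the 15 starts, 2 of *Mag* that overlap and share the match and 1 of *Cnp*, and at 16.46% of all 32851 promoters. The motif ACAATG was found on either strand at 0 of the 15 and at 10.69% of all promoters, the EGR motif GCGNGGGCG at 0 and 4.697%, and TATAAA at 0 and 12.37%. A match is a description of the letters and not of binding, and binding was not measured.

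The 12 libraries held between 28498549 and 36134983 counts, 1 library per mouse, so that the 8 genes were covered by 33 counts (*Mag* in control 4) to 36919 counts (*Pmp22* in mutant 1). Mice of 1 genotype differed beyond counting error. No batch is given in the labels. Supporting cell markers were abundant, with a summed level of 6265 to 8145 CPM in controls and 5227 to 6965 CPM in mutants, and *Tectb*, of the tectorial membrane, had the highest level among them (3527 CPM over all mice). Fibroblast markers summed to 10633 to 13064 CPM and 10146 to 11395 CPM, so the tissue was not epithelium alone.

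For 6 of the 8 genes the fitted level in the *Jag1* mutants was between 2.65 times (*Cnp*) and 5.15 times (*Mag*) that of the controls, but levels differed greatly from mouse to mouse in both genotypes, and no gene of the 8 passed the adjusted threshold of edgeR. The log2 fold changes ran from 2.36 for *Mag* to 0.05 for *Sox10*, with a median of 1.64 over the 8 genes against 0.00 over all 18459 genes tested. At an adjusted p under 0.05, edgeR's quasi-likelihood test called 0 of the 8 genes, where it called 35 genes in all (0.19%). At an unadjusted p under 0.05, 7 of the 8 were higher in mutants, where 6.52% of all genes were higher and 4.04% lower. DESeq2, on the same counts, gave 6 of the 8 an adjusted p under 0.05, all of them higher, beside 2.56% of all genes higher and 0.791% lower. In 6 of the 8 genes all mutants lay above the control median, against 6.31% of all genes, and for *Mag* alone of the 8 the mutants and controls did not overlap, against 0.618% of all genes with every mutant above every control. The 8 genes were chosen with earlier results of these data known, so the shares are given as a description and not as a test. These libraries are of whole tissue, in which more Schwann cells and more of each RNA per Schwann cell cannot be told apart.

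**Figure D1:**
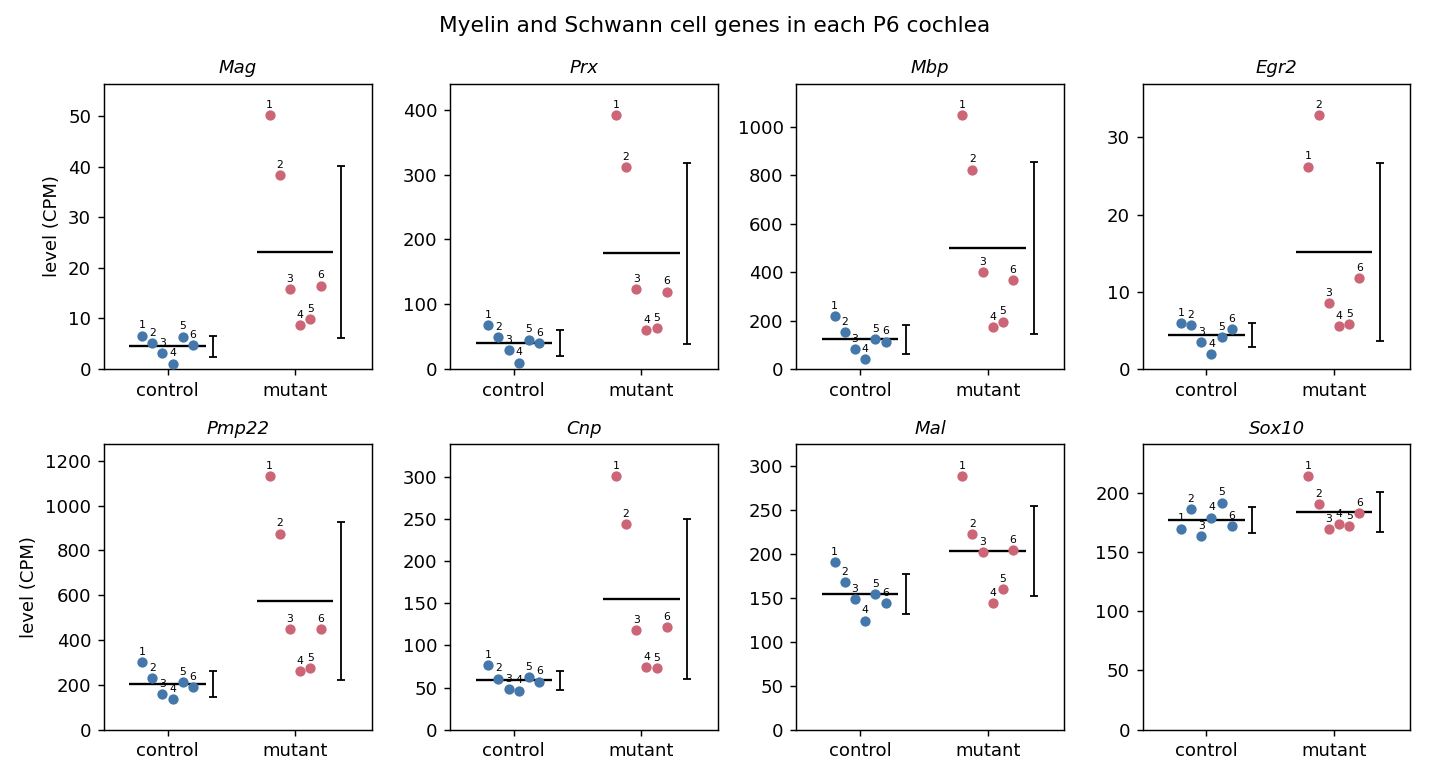
Level (CPM, linear axes from 0) of the 8 genes in each control (blue) and mutant (red), with the number of the mouse, a line at the mean and a bar of 1 SD. Mutants 1 and 2 stand above the rest for *Mag*, *Prx*, *Mbp*, *Egr2*, *Pmp22* and *Cnp*, mutants 4 and 5 sit beside the highest controls, and the *Sox10* points of the genotypes overlap.

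*Mbp* (chromosome 18) encodes myelin basic protein, which holds the cytoplasmic faces of compact myelin together. It was at 39.9 CPM in the lowest control, 118 CPM in the median and 220 CPM in the highest, and at 173, 383 and 1048 CPM in the lowest, median and highest mutant. The 4 mutants other than 4 and 5 lay above every control, and mutants 4 and 5 lay between the highest and the second highest control. With means of 122 ± 61.1 and 501 ± 356 CPM (SD, n = 6 each), its log2 fold change came to 2.04 (SE 0.53, edgeR unadjusted p = 0.00249 and adjusted p = 0.121). DESeq2 gave an adjusted p of 0.00568.

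*Pmp22* (chr11:63128982-63159547, plus strand) encodes the peripheral myelin protein whose duplication causes a form of Charcot-Marie-Tooth neuropathy. Its level was 137, 200 and 302 CPM in the lowest, median and highest control, and 262, 449 and 1132 CPM in the lowest, median and highest mutant. The overlap was again of mutants 4 and 5 with control 1. This gave a log2 fold change of 1.49 (SE 0.38, edgeR unadjusted p = 0.00207 and adjusted p = 0.113, DESeq2 adjusted p = 0.0116).

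*Mag* (chr7:30899176-30914873, minus strand), the gene of myelin-associated glycoprotein, an adhesion molecule of the myelin membrane that faces the axon, had the highest fold change. The lowest, median and highest controls were at 1.03, 4.91 and 6.59 CPM, and the mutants at 8.65, 16.2 and 50.2 CPM, so that the lowest mutant lay above the highest control. Its means of 4.51 ± 2.10 and 23.2 ± 17.0 CPM (SD, n = 6 each) gave 2.36 on the log2 scale (SE 0.54, edgeR adjusted p = 0.0937). The level of each of the 8 genes was also compared by exact permutation, without adjustment. For *Mag* the exact permutation test gave p = 0.00216, the smallest that 6 mice against 6 allow. That value follows from the lack of overlap and adds nothing to it. The exact permutation p was 0.00649 for *Mbp*, *Pmp22*, *Prx* and *Cnp*, 0.0108 for *Egr2*, 0.0498 for *Mal* and 0.463 for *Sox10*. For *Mag* DESeq2 gave an adjusted p of 0.00169.

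*Cnp* (chr11:100574904-100591729, plus strand) encodes a cyclic nucleotide phosphodiesterase of the uncompacted channels of myelin. Controls were at 46.4, 58.9 and 77.0 CPM (lowest, median and highest) and mutants at 73.5, 120 and 301 CPM. Mutants 4 and 5 lay just below control 1 and above the other controls. On the log2 scale mutants were higher by 1.41 (SE 0.36, edgeR unadjusted p = 0.00209 and adjusted p = 0.113, DESeq2 adjusted p = 0.0110). *Cnp* shares 154 exonic bases with *Dnajc7* on the opposite strand, which had a mean of 4105 counts per library. Since the sources used here do not state whether counting used the strand, reads from that stretch may come from either gene.

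*Prx* (chr7:27499324-27520214, plus strand) encodes periaxin, a scaffold that ties the Schwann cell membrane outside the myelin to its cytoskeleton. Controls were at 9.82, 42.3 and 67.8 CPM (lowest, median and highest) and mutants at 60.3, 121 and 392 CPM. Only control 1 lay above the lowest mutants. Mean levels were 40.0 ± 19.5 and 178 ± 139 CPM (SD, n = 6 each), with a log2 fold change of 2.16 (SE 0.58, edgeR unadjusted p = 0.00359 and adjusted p = 0.134, DESeq2 adjusted p = 0.00584). *Prx* shares 300 exonic bases with *Gm15541* on the other strand, which had a mean of 18.9 counts per library.

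*Mal* (chr2:127633226-127656695, minus strand) encodes a proteolipid of membrane rafts that is found in myelin and is also made by many epithelial cells. Controls were at 124, 151 and 191 CPM (lowest, median and highest) and mutants at 144, 203 and 289 CPM. Here 5 of 6 mutants lay above the control median, and mutant 4 lay below it. Its log2 fold change came to only 0.39 (SE 0.15, edgeR unadjusted p = 0.0196 and adjusted p = 0.315, DESeq2 adjusted p = 0.187).

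Of the regulators, *Egr2* (chr10:67535475-67542188, plus strand), the transcription factor required for myelination by Schwann cells, was at 1.96, 4.62 and 5.95 CPM in the lowest, median and highest control and at 5.52, 10.2 and 32.9 CPM in the mutants. Mutants 4 and 5 lay within the range of the controls. For *Egr2* this was a log2 fold change of 1.79 (SE 0.49, edgeR unadjusted p = 0.00346 and adjusted p = 0.133, DESeq2 adjusted p = 0.0142). *Sox10* (chromosome 15), which marks Schwann cells at every stage and is also made by melanocytes and by cells of the otic epithelium, gave another picture. Controls were at 164, 175 and 192 CPM (lowest, median and highest) and mutants at 169, 178 and 214 CPM, and the groups overlapped almost wholly. The log2 fold change of *Sox10* came to 0.05 (SE 0.07, edgeR unadjusted p = 0.438 and adjusted p = 0.884), and mutant 1, the highest mouse, was also the highest for *Mbp*, *Pmp22*, *Mag*, *Mal*, *Prx* and *Cnp*.

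The myelin genes differed from *Sox10* in the size of their difference between genotypes. The log2 ratio of each gene to *Sox10* within a mouse was compared between genotypes by exact permutation (two-sided), for 7 ratios in all and without adjustment. The log2 ratio of *Mag* to *Sox10* was higher in mutants by 2.19 (exact permutation p = 0.00216). For *Prx*, *Mbp*, *Egr2*, *Pmp22* and *Cnp* the difference was 1.94, 1.86, 1.46, 1.26 and 1.16 (exact permutation p = 0.00649 each). For *Mal* it was 0.32 (exact permutation p = 0.0498). Since *Sox10* hardly differed between genotypes or among mice, these ratios largely repeat the tests of the genes' own levels and are not separate support. The ratios also share *Sox10* as their denominator. The exact permutation p of the level itself was the same for each gene but *Egr2* (p = 0.0108).

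The genes with the highest fold changes were also those that varied most among the controls. The highest control was 6.91-fold above the lowest for *Prx*, 6.41-fold for *Mag*, 5.50-fold for *Mbp*, 3.03-fold for *Egr2*, 2.20-fold for *Pmp22*, 1.66-fold for *Cnp*, 1.54-fold for *Mal* and 1.17-fold for *Sox10*. Among mutants these ranges were 6.50-fold for *Prx*, 6.06-fold for *Mbp*, 5.95-fold for *Egr2*, 5.81-fold for *Mag*, 4.32-fold for *Pmp22*, 4.10-fold for *Cnp*, 2.0-fold for *Mal* and 1.26-fold for *Sox10*. The order of the genes by their range within the controls was thus close to their order by fold change between genotypes. Control 4 was the lowest control for every gene but *Sox10*, so the control ranges and their order rest in part on that mouse.

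Per kilobase of exon, the mean levels of the controls were highest for *Pmp22* (86.9 CPM per kilobase), *Sox10* (58.0) and *Mal* (55.7), lower for *Cnp* (16.1), *Mbp* (14.4) and *Prx* (7.17), and lowest for *Egr2* (1.29) and *Mag* (1.11). The ranges of the controls overlapped for each neighbouring pair within these 3 tiers and did not overlap between them. The lower 2 tiers were barely apart, with *Prx* at 1.759 in control 4 and *Egr2* at 1.752 in its highest control. The length used is that of all annotated exons of a gene together, not of the transcripts made here, so the order depends on it. In mutants *Pmp22* (244 CPM per kilobase) was again highest, and *Mal* (73.3), *Sox10* (60.2) and *Mbp* (59.2) followed it.

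Single mice set much of these means. Control 4 was the lowest control for 7 of the 8 genes, with 19.8% of the mean of the other controls for *Mag*, 21.3% for *Prx*, 28.9% for *Mbp* and 40.4% for *Egr2*, but 101% for *Sox10*. Mutants 1 and 2 had a mean of 936 CPM for *Mbp*, and mutants 3 to 6 a mean of 284 CPM. Without mutants 1 and 2, an alternative chosen after seeing the data, the log2 fold change was 1.49 for *Mag* (edgeR unadjusted p = 0.00496, adjusted p = 0.313), 1.22 for *Mbp* (unadjusted p = 0.0232), 1.19 for *Prx*, 0.86 for *Egr2*, 0.81 for *Pmp22*, 0.72 for *Cnp*, 0.20 for *Mal* and -0.02 for *Sox10*. Without control 4 as well it was 1.29 for *Mag*, 1.04 for *Mbp*, 0.99 for *Prx*, 0.71 for *Egr2*, 0.72 for *Pmp22*, 0.67 for *Cnp*, 0.14 for *Mal* and -0.02 for *Sox10*. In both fits 6 of the 8 genes had an unadjusted p under 0.05 and 0 an adjusted p under 0.05. Without mutant 5, *Pmp22*, *Mag* and *Cnp* passed, with edgeR adjusted p = 0.0421, 0.0390 and 0.0387.

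**Figure D2:**
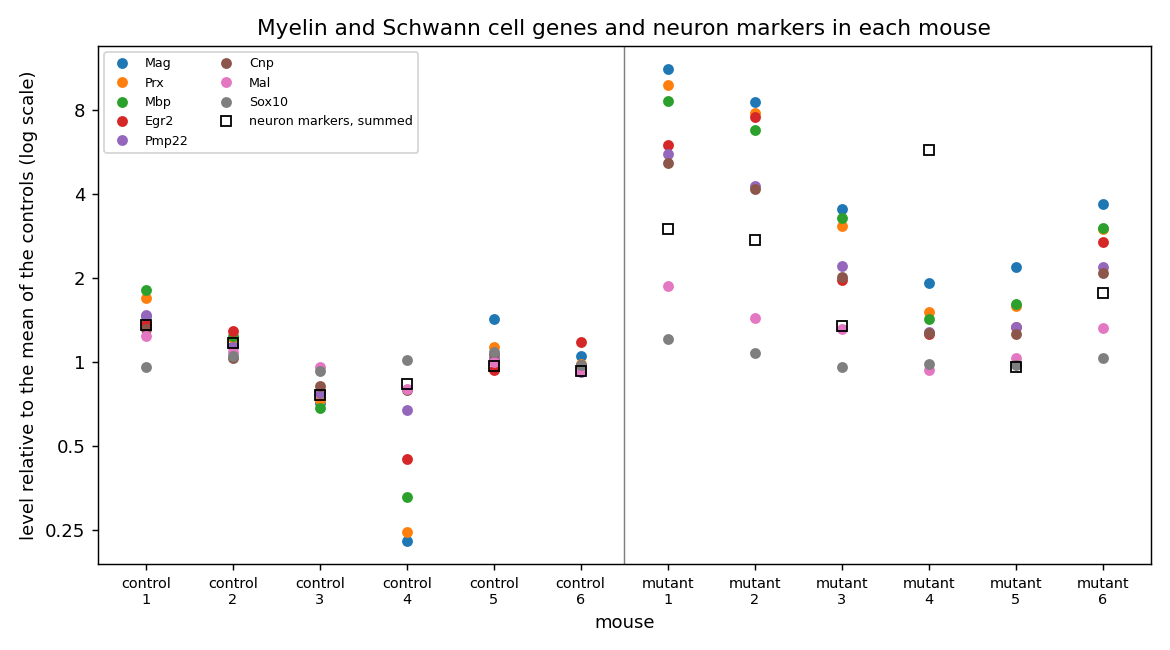
Level of each of the 8 genes, and of 17 neuron markers summed (open squares), in each mouse, divided by the mean of the 6 controls, on a log axis. In mutants 1 and 2 *Mag* reached 11.1 and 8.53 times the control mean, in control 4 it was at 0.228 times, and the neuron markers were highest in mutant 4.

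Within each genotype, the myelin genes went up and down together from mouse to mouse. Against *Mag* in the 6 mutants, Pearson's r on the log2 scale was 0.993 for *Mbp*, 0.998 for *Pmp22*, *Prx* and *Cnp*, 0.970 for *Egr2* and 0.944 for *Mal*. The exact permutation p of r was between 0.00278 and 0.00694, and adjusted over the 14 relations computed it was at most 0.0122. Spearman's rho was 0.943 for these genes except *Mal*, with 1.0 (exact permutation p = 0.0167 and 0.00278, adjusted p = 0.0233 and 0.0194). Without the 2 mutants farthest from the median of *Mag*, r stayed between 0.943 and 0.995. In the mutants r was 0.883 for *Sox10* (exact permutation p = 0.0139, adjusted p = 0.0216) with rho 0.771 (exact permutation p = 0.103, adjusted p = 0.111), and r was 0.341 without those 2 mice, so this relation rested on them.

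In the 6 controls r against *Mag* was 0.982 for *Prx* and 0.942 for *Mbp* (exact permutation p = 0.00556 and 0.00694, adjusted p = 0.0122 for both, rho 0.943 with p = 0.0167 and adjusted p = 0.0233 for both). It was 0.918 for *Egr2*, 0.841 for *Pmp22*, 0.822 for *Mal* and 0.820 for *Cnp* (exact permutation p = 0.0236, 0.0236, 0.0403 and 0.0347, adjusted p = 0.0301, 0.0301, 0.0434 and 0.0405). Spearman's rho for these 4 genes was 0.829, 0.943, 0.886 and 1.0 (exact permutation p = 0.0583, 0.0167, 0.0333 and 0.00278, adjusted p = 0.0681, 0.0233, 0.0424 and 0.0194). For *Sox10* r was 0.132 and rho 0.200 (exact permutation p = 0.822 and 0.714, adjusted p = 0.822 and 0.714). Without the 2 controls farthest from the median, r was between 0.580 and 0.803 for 5 of the genes, 0.137 for *Sox10* and -0.19 for *Egr2*, so that the relation of *Egr2* rested on those mice.

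Other genes followed the same profile. Over the 12 mice, with the mean of each genotype removed, the other genes most like the mean profile of *Mbp*, *Mag*, *Prx* and *Egr2* included *Fa2h* (r 0.968), *Cldn19* (0.968), *Plekha4* (0.967) and *Pou3f1* (0.960), among 12146 genes with a mean of at least 5 CPM. *Fa2h* encodes the hydroxylase of myelin lipid fatty acids, *Cldn19* a claudin of Schwann cell junctions and *Pou3f1* a transcription factor of promyelinating Schwann cells. The level of *Cldn19* was 12.5 ± 7.95 CPM in controls against 71.5 ± 55.7 CPM in the mutants (SD, n = 6 each), and that of *Plekha4* was 16.5 ± 4.80 against 58.3 ± 35.9 CPM. By the same measure *Pmp22* ranked 13, *Mal* 28, *Cnp* 31 and *Sox10* 338 (r 0.579). An r over 0.9 was found for 35 genes. These include *Mbp*, *Mag*, *Prx* and *Egr2*, which make up the profile and so are high by construction, and *Pmp22*, *Mal* and *Cnp*. The points share libraries and the profile, so these values are a description.

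The wider gene lists of myelination were then read from the same fit. In each of the 6 lists 0 genes passed an adjusted p under 0.05 in edgeR, and the counts at an unadjusted p under 0.05 are to be set beside the 6.52% of all genes higher and 4.04% lower. The lists too were chosen with earlier results of these data known, so their counts are a description. Of 23 other proteins of peripheral myelin and its nodes, 16 were higher at that level and 0 lower, 10 passed DESeq2, and the median log2 fold change was 0.55. *Dhh*, the hedgehog ligand that Schwann cells send to the nerve sheath, had 3.84 ± 0.950 CPM in controls against 11.8 ± 5.97 CPM in the mutants (SD, n = 6 each, log2 fold change 1.62, edgeR adjusted p = 0.0547). *Ncmap*, of non-compact myelin, was at 13.5 and 29.4 CPM (log2 fold change 1.12, edgeR adjusted p = 0.0834). *Pmp2*, a fatty acid binding protein of myelin, was higher by 2.22 on the log2 scale (edgeR adjusted p = 0.110) but was at 0.283 CPM even in mutants. Without mutants 1 and 2, 8 of the 23 passed an unadjusted p under 0.05, and with the mean level of neuron markers as a term in the model 3 did.

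The next list held 5 enzymes, those for the galactolipids of myelin and *Aspa*, which acts on N-acetylaspartate. Of the 5, 4 were higher at an unadjusted p under 0.05, and the same number passed DESeq2. The median log2 fold change over the 5 was 1.29, the value of *Aspa* itself. With neuron markers in the model 0 passed. The 4 genes were *Fa2h* (log2 fold change 2.35), *Ugt8a*, which makes galactosylceramide (1.62), *Aspa*, which frees acetate from N-acetylaspartate (1.29), and *Gal3st1*, which makes sulfatide (0.74), with edgeR adjusted p = 0.129, 0.196, 0.0834 and 0.154. The log2 fold change of *Cers2*, a ceramide synthase made in most tissues and named after its value was seen, was -0.09 (edgeR adjusted p = 0.703). Cholesterol is the other lipid that myelin needs in bulk, and of 17 genes of its synthesis 7 were higher and 0 lower at that level, but with small differences (median log2 fold change 0.14), and 2 passed DESeq2. *Hmgcs1*, *Idi1* and *Dhcr7*, enzymes of the pathway, had log2 fold changes of 0.39, 0.39 and 0.14 (edgeR adjusted p = 0.0834, 0.311 and 0.412). The count of 7 became 3 without control 3 or without control 6, 4 without mutant 1 or without mutant 4, 2 without control 4 and mutants 1 and 2, and 0 with neuron markers in the model.

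Among 12 other Schwann cell regulators and receptors, 5 were higher and 0 lower at an unadjusted p under 0.05, 3 passed DESeq2, and the median log2 fold change of the list was 0.00. The count was 3 with neuron markers in the model and also without control 4 and mutants 1 and 2. *Erbb3*, the neuregulin receptor of Schwann cells, had 85.1 ± 9.23 CPM in controls against 133 ± 32.1 CPM in the mutants (SD, n = 6 each, log2 fold change 0.65, edgeR adjusted p = 0.0615), and its lowest mutant (110.3 CPM) lay above its highest control (100.3 CPM). *Pou3f1* and *Pou3f2*, POU factors of the promyelinating stage, had log2 fold changes of 2.59 and 1.71 (edgeR adjusted p = 0.0834 and 0.0843). Their mutants also lay above every control, so this held for 3 of the 12 genes, against 0.618% of all genes. *Zeb2*, which represses inhibitors of myelination, had 0.38 (edgeR adjusted p = 0.260). The 7 genes that did not pass lay between log2 fold changes of -0.15 and 0.02.

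Of 14 genes of immature or repair Schwann cells, 6 were higher and 1 lower at an unadjusted p under 0.05 (median log2 fold change 0.08), and 3 passed DESeq2. These 7 became 4 without control 3 and 1 with neuron markers in the model. *L1cam*, an adhesion molecule of non-myelinating Schwann cells and of axons, had a log2 fold change of 3.07, *Foxd3*, of the neural crest, 2.45, and *Ngfr*, a neurotrophin receptor, 1.38 (edgeR adjusted p = 0.0985, 0.0615 and 0.121). In mutants *L1cam* ran from 2.76 to 58.1 CPM with a median of 12.1 CPM, and its highest control was at 3.96 CPM. *Jun*, a negative regulator of myelination, had 0.23 (edgeR adjusted p = 0.315). The gene that was lower was *Gfap*, an intermediate filament of glia, at 3.02 and 2.30 CPM (log2 fold change -0.39, edgeR adjusted p = 0.424), chosen after its value was seen.

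**Figure D3:**
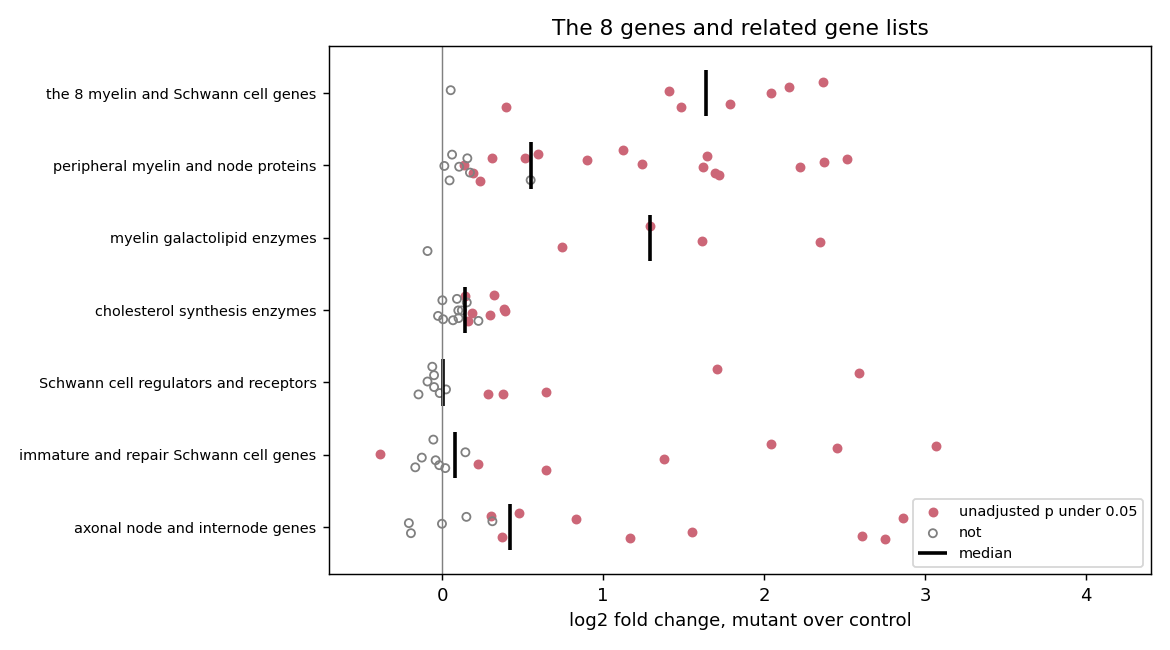
Log2 fold change (mutant over control) of the 8 genes and of the genes of 6 related lists, with filled points for an unadjusted p under 0.05 in edgeR and a bar at the median. The median of the 8 genes is 1.64, that of the galactolipid enzyme list (which includes *Aspa*) 1.29, and that of the regulators and receptors 0.00.

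The axonal partners of myelin were the last list. Of 14 genes of nodes and internodes of the axon, 9 were higher and 0 lower at an unadjusted p under 0.05 (median log2 fold change 0.42), and 5 passed DESeq2. With neuron markers in the model 2 of the 14 passed. *Cadm3*, the axonal adhesion molecule that binds Schwann cells, had a log2 fold change of 2.75, *Kcna1* and *Kcna2*, potassium channels beside the node, 2.61 and 1.55, and *Sptbn4*, the spectrin of the node, 0.83 (edgeR adjusted p = 0.0954, 0.123, 0.103 and 0.117). *Kcna1* had 16.9 ± 10.4 CPM in controls against 103 ± 83.9 CPM in the mutants (SD, n = 6 each).

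Markers of neurons were also at higher levels in mutants, although the adjusted p of the list missed 0.05. The 17 markers summed to 222 to 394 CPM in controls and 279 to 1674 CPM in mutants, 14 of the 17 were higher at an unadjusted p under 0.05, and their mean log2 level was 1.78 higher in mutants (exact permutation p = 0.00866, adjusted over 9 marker lists p = 0.0779). The most abundant were *Uchl1* (76.3 CPM in controls, 97.2 CPM in mutants), *Nefm* (18.4 and 121 CPM) and *Syt1* (74.3 and 64.2 CPM). The order of the mice was in part that of myelin. Control 1 had the highest neuron sum of the controls (394 CPM) and their highest *Mbp*. Mutants 1 and 2, the highest for *Mbp*, had neuron sums of 873 and 794 CPM, above all other mutants but mutant 4. Mutant 4 had the highest neuron sum (1674 CPM) but the lowest *Mbp* and *Mag* of the mutants. Mutant 5 had the lowest neuron sum of the mutants (279 CPM) and was among their lowest for *Mbp* and *Mag*. Its *Mag* (9.82 CPM) lay above every control, and its *Mbp* (195 CPM) lay below control 1 (220 CPM). With the mean log2 level of the neuron markers as a term in the edgeR model, 0 of the 8 genes had an unadjusted p under 0.05. The log2 fold change was then 1.36 for *Mag* (SE 0.68, unadjusted p = 0.0690), 0.97 for *Mbp*, 0.94 for *Prx*, 0.76 for *Egr2*, 0.75 for *Pmp22* and *Cnp*, 0.20 for *Mal* and -0.01 for *Sox10*. That term and the genotype are related, and the part of neuron content in the difference was not tested beyond this fit.

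**Figure D4:**
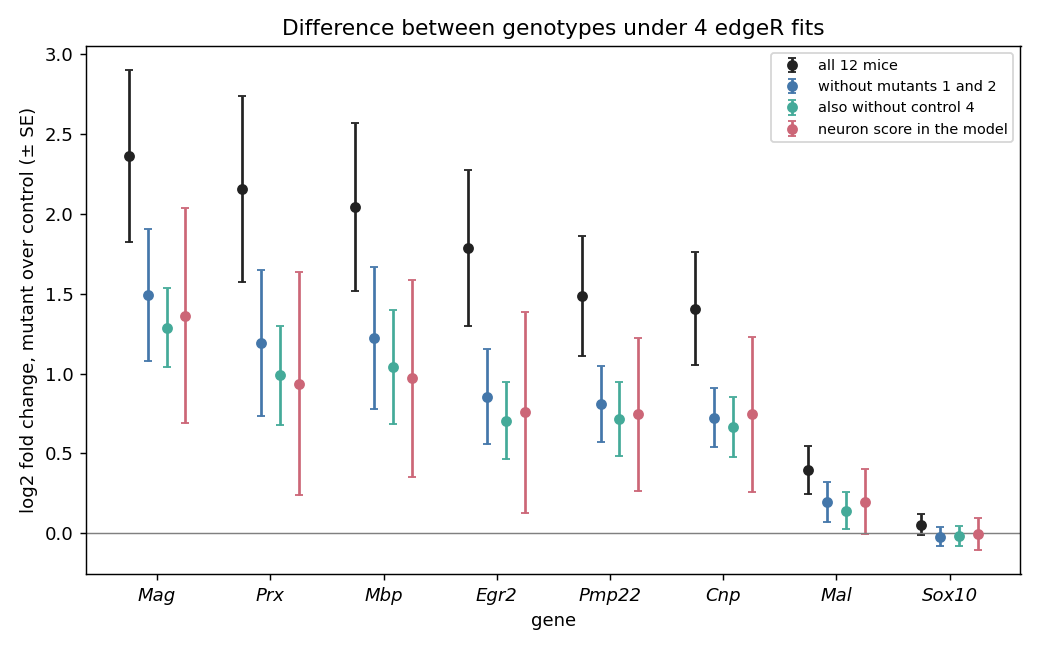
Log2 fold change (mutant over control, bars of 1 standard error) of the 8 genes in 4 edgeR fits: all 12 mice, without mutants 1 and 2, also without control 4, and with the neuron marker level in the model. *Mag* is at 2.36, 1.49, 1.29 and 1.36 in these fits, and *Sox10* lies within 1 standard error of 0 in all 4.

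Some of the 8 genes are also made by oligodendrocytes, the glia that myelinate axons of the central nervous system. Of 11 oligodendrocyte markers found in the counts, 9 were under 1 CPM, the list summed to 9.25 to 14.9 CPM in controls and 12.1 to 16.4 CPM in mutants, and its mean log2 level differed by 0.15 (exact permutation p = 0.260, adjusted p = 0.390). The most abundant were *Myrf* (9.25 CPM over all mice), *Enpp6* (2.34 CPM) and *Gpr17* (0.596 CPM). Only 5 of the 11 had counts enough to be tested in edgeR. Of these *Gpr17* alone had an unadjusted p under 0.05, with a log2 fold change of 0.98 (edgeR unadjusted p = 0.0393). Markers named after their values were seen were *Mobp*, at 0.224 CPM, *Mog*, at 0.164 CPM (log2 fold change 0.78, edgeR unadjusted p = 0.0521), and *Olig2*, at 0.0154 CPM. None of the list was at 0 in every library. Melanocytes, which also make *Sox10*, had markers at 798 to 1176 CPM in controls and 696 to 1111 CPM in mutants (difference of the mean log2 level 0.03, exact permutation p = 0.745, adjusted p = 0.794), with *Dct* at 806 CPM, *Tyr* at 119 CPM and *Mitf* at 53.9 CPM over all mice.

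Markers of the other cell types differed less, or in the other direction. The mean log2 level of 10 supporting cell markers was 0.19 lower in mutants (exact permutation p = 0.0216, adjusted p = 0.0974), and 4 of the 10 were lower at an unadjusted p under 0.05. That of 9 macrophage markers was 0.24 lower (exact permutation p = 0.0390, adjusted p = 0.117), with 260 to 348 CPM in mutants and 324 to 406 CPM in controls. For 10 hair cell markers the difference was 0.12 (exact permutation p = 0.165, adjusted p = 0.370), and *Pvalb*, which spiral ganglion neurons also make, was the single marker of that list with an unadjusted p under 0.05. The differences for fibroblast, red blood cell and bone markers were -0.11, -0.13 and -0.20 (exact permutation p = 0.234, 0.794 and 0.760, adjusted p = 0.390, 0.794 and 0.794). The part of these cell types in the values of the 8 genes was not tested.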

How the data were processed

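RNA of 12 cochlear samples, 1 per mouse and 6 per genotype, was sequenced with single-end reads of 100 nt. The deposited values are raw counts by gene symbol, whole numbers that the authors neither normalized nor pooled. The submitters' processing notes name Trimmomatic 0.32, STAR 2.4.2a, HTSeq 0.9.1, DESeq2 1.10.1 and build GRCm38.p4, and the annotation and the strand setting are not given in the sources used here. A second deposited table of the authors' own comparison (mean levels, fold changes and p-values) was not used. The totals of 28498549 to 36134983 counts per library make the spread between mice, more than counting, the limit on precision.

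A mean count of 5 or more was required, which kept 18459 of 28686 genes. These were compared by the quasi-likelihood test of edgeR 4.0.16 (R 4.3.3, TMM, robust, no covariate, Benjamini-Hochberg over all genes tested). CPM values use the TMM factors. Single values were compared by exact two-sided permutation of log2(CPM + 0.1) over 924 divisions of the mice, with scipy 1.17.1. Cell type lists were summed in CPM, and their mean log2 levels compared in the same way. Levels per kilobase use the exon lengths of the mouse annotation supplied on GRCm38, as do the gene coordinates. Alternatives were DESeq2 1.42.0 without a prior, limma-voom (limma 3.58.1), other normalizations and filters, estimation that was not robust, a replicate block, the neuron marker level as covariate, a pseudocount of 1 and leaving out each mouse. The fits were tested on simulated data. The 8 genes and all lists were chosen with earlier results of these data known. Named beside the 8 were *Jag1*, the 4 genes of each pathway list with the smallest p, up to 3 of the most abundant markers of a cell type, and the 5 genes most like the mean profile of *Mbp*, *Mag*, *Prx* and *Egr2*. A few others (*Cers2*, *Gfap*, *Mobp*, *Mog* and *Olig2*) were named after their values were seen. Some genes that this rule names are not reported here. Of 176 listed genes, 1 has no row in the counts and 1 was matched by an older symbol. RNA quality, hearing and histology were not analysed here.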

Additional observations from a re-analysis of the deposited data

How the results depend on the processing

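The number of genes with an adjusted p under 0.05 was 35 and became 619 with DESeq2, 19 with limma-voom, 57 without a filter, 131 with the replicate block and 2 with the neuron marker level as covariate, and it lay between 14 and 356 when each mouse was left out, the highest without mutant 5. Of the 8 myelin and Schwann cell genes 0 were called, 6 with DESeq2, 5 with the replicate block and between 0 and 3 without each mouse, with 3 only without mutant 5. At an unadjusted p under 0.05 they were 7 of 8 in every fit that left out 1 mouse, 0 with the neuron covariate and 6 in both fits without the extreme mice. The log2 fold change of *Sox10* changed sign, to -0.0064 with the neuron covariate, -0.0211 without mutants 1 and 2 and -0.0179 also without control 4. The other 7 genes were higher in mutants in every fit run, with log2 fold changes across fits that left out 1 mouse of 1.98 to 2.54 for *Mag*, 1.69 to 2.29 for *Mbp* and 0.27 to 0.48 for *Mal*. The cause of these changes was not tested.

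Mice of both genotypes are numbered 1 to 6, but no source says that a number marks a shared litter, and the correlations of same-numbered mice were -0.169, 0.148, 0.283, -0.191, 0.0353 and 0.236, with 2 of 6 controls most like their own number. They were not treated as pairs. With the replicate block the log2 fold changes were 1.92 for *Mbp*, 1.32 for *Pmp22*, 2.26 for *Mag*, 2.01 for *Prx* and 1.55 for *Egr2*, the 5 genes that passed (edgeR adjusted p = 0.0171, 0.0297, 0.0287, 0.0297 and 0.0297). With the neuron covariate the genes at an unadjusted p under 0.05 were 3 of the 23 myelin and node proteins, 0 of the galactolipid enzymes, 0 of the cholesterol genes, 3 of the regulators, 1 of the immature Schwann cell genes and 2 of the axonal genes. Without any filter 3 cholesterol genes passed. Without mutants 1 and 2, 8 of the myelin and node proteins passed. With control 4 left out as well, 8 of these, 2 of the cholesterol genes, 3 of the regulators and 4 of the immature Schwann cell genes passed. When each mouse was left out, the counts ran from 11 to 16, 4 to 5, 3 to 8, 4 to 6, 4 to 7 and 9 to 11 in the same order of lists. Depth limits *Pmp2* and the oligodendrocyte markers, which had few counts.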
